A study of Pan troglodytes with 8 samples.

Results

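The motile cilium genes are a set of 52 genes for the machinery of beating cilia, and the accessibility of the chromatin around them was examined in cells sorted from chimpanzee cerebral organoids. A region counted as a member where the gene closest to it in the deposited table was 1 of the 52, at any distance. This gave 234 of 211348 regions, for 50 of the 52 genes. No region analysed here was assigned to CCDC39, and the only row of TEKT4 had no chimpanzee identifier and no reads, so both are named only.

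A motile cilium is a microtubule shaft, the axoneme, whose outer and inner dynein arms slide neighbouring doublets against each other, while radial spokes, the central pair and the nexin-dynein links shape the beat. In multiciliated cells GMNC and MCIDAS start the programme, CCNO acts in the making of many centrioles, and FOXJ1 and the RFX factors switch on the genes of the axoneme. In the brain such cilia are borne by ependymal cells, while radial glia carry a primary cilium that shares the intraflagellar transport machinery and does not need the beating parts.

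The organoids were grown from 1 chimpanzee induced pluripotent stem cell line, SandraA, from 9000 seeded cells each, and were collected in week 8 of culture, give or take 3 days. Sorting gave BCL11B+ neurons (N), basal intermediate progenitors (bIP, dividing cells that make neurons), basal radial glia (bRG, stem cells that have left the ventricle) and apical radial glia (aRG, stem cells that line it), with 2 libraries each and with no treatment or engineered allele in the labels. The assay was bulk ATAC-seq, in which a transposase cuts open chromatin, and the values are counts of reads per region. The labels do not say that libraries 1 and 2 of a population came from separate cultures, so p-values measure the spread between these 8 libraries, which may be technical.

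Library totals lay between 24913928 and 34845193 counts, and the member regions held 0.117% to 0.129% of each. Values are given in CPM, read counts scaled to a common library total after adjustment by TMM, a scaling factor for each library. These factors were fitted separately for regions and for gene sums. Log2 fold changes are of the first population over the second, for N against aRG where no pair is named. "Rose" and "fell" are kept for a Benjamini-Hochberg adjusted p under 0.05 over all regions, or over all gene sums, of the table. Of 11 radial glia marker genes, the summed regions of 10 fell in N against aRG, and of 8 neuron marker genes 6 rose, where 28% of all gene sums fell and 32.8% rose. Of the 8 neuron markers 6 also rose in bIP against aRG, where 22% of all gene sums rose. In N against bIP 2 of the 8 rose and 3 fell, beside 20.9% and 19.2% of all. The neuron list thus did not set N apart from bIP. Of 6 markers of intermediate progenitors, 4 rose in bIP against aRG, where 22% of all rose. BCL11B, the gene that names the neurons, had 54.9 and 47.0 CPM in N, 77.9 and 74.4 in bIP, and 65.9 and 58.2 in aRG, and its N against aRG difference was not called (log2 fold change -0.28, SE 0.12, edgeR adjusted p = 0.0628). In pooled cells, fewer cells with an open region and less opening per cell cannot be told apart.

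The members were spread unevenly over the genes. DNAH5 had 20 regions, DNAH9 18, DNAH11 16 and RFX3 13, together 67 of the 234, while 12 genes had 1 region each. A deposited distance of 0 is read here as overlap with the gene's start. Of the member regions 18.8% lay at a start, against 7.77% of all regions, and 44 members had such a region. The members without one were RFX3, CCDC40, DNAH17, DNAH3, SPAG16 and STOML3. The farthest member region lay 207978 bp away. Nearness to a start is all that ties a region to a gene here. In the RefSeq annotation of another chimpanzee assembly, 26 of the 52 genes overlap another protein-coding gene or have one within 1 kb of either end. Examples are DNAH1 with BAP1 and SPAG1 with RNF19A. That count covers the whole gene, so it does not say how many starts have a second gene nearby.

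The deposited peak lists, 1 for each population, placed most member starts among the regions with a peak in all 4 lists. The share over all gene starts was not computed, so these counts do not set the members apart from other genes. Of the 44 start regions, 35 overlapped a peak in all 4 lists, and 5 more, at CFAP44, DNAH12, DNAI2, MCIDAS and SPAG6, did so in all but the N list. DNAH1 had start peaks in N and bIP only, and DNAH5 in bRG and aRG only. DNAH8 and DNAH9, heavy chains of the outer arm, had no start peak in any list. Over all 234 member regions 60 had a peak in every list (25.6%, against 17.7% of all regions), 20 in N only (8.55%, against 11.3%), 19 in bRG and aRG only (8.12%, against 9.36%), and 80 in none (34.2%, against 35.6%). Of the 60 with a peak in every list, 35 were starts. Starts made up 18.8% of member regions but 7.77% of all regions, and these shares are not matched for that. With 1 list a population, these are descriptions without a replicate spread.

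The regions near these genes were called about as often as all regions in most comparisons. The member share was 68.2% in N against aRG, 49.8% in bIP against aRG, 66.8% in N against bRG and 42.4% in bIP against bRG. In N against bIP it was lower, 40.6% against 47.6% of all. Starts make up more of the members than of all regions, and these shares are not matched for that. In N against aRG, 148 of 217 member regions tested were called (79 rose, 69 fell), where 69% of all 198227 regions tested were called, 37.2% up and 31.7% down. In bIP against aRG 108 were called (52 rose, 56 fell), against 47.2% of all regions, 24.5% up and 22.6% down. In N against bIP 88 were called (46 rose, 42 fell), against 47.6% of all, 25% up and 22.6% down. In N against bRG 145 were called (77 rose, 68 fell), against 67.9% of all, 37.5% up and 30.4% down. In bIP against bRG 92 were called (49 rose, 43 fell), against 42.9% of all, 22.4% up and 20.4% down. A joint test over the 4 populations called 154 member regions, and 73.5% of all. In bRG against aRG edgeR called 0 member regions and 0% of all regions, DESeq2 also called 0, and 5 member regions had an unadjusted p under 0.05, as had 5232 of all.

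Starts and regions away from them split differently, among the members as among all regions. Of the 43 start regions tested, 2 rose and 23 fell in N against aRG, and 2 rose and 23 fell in bIP against aRG. In N against aRG the regions over 0 and up to 50 kb away split into 52 that rose and 33 that fell of 123, and those beyond 50 kb into 25 and 13 of 51. The member shares up to 50 kb were 42.3% up and 26.8% down, with 38.3% and 30.9% of all regions of that class. Beyond 50 kb they were 49.0% and 25.5%, with 43.6% and 30.3% of all. Gene starts in general leaned the same way: of all 16146 start regions tested 1789 rose and 6706 fell in N against aRG, and 1138 rose and 5689 fell in bIP against aRG. The median log2 fold change of member starts was -0.62 in N against aRG, with -0.25 over all starts, and -0.40 in bIP against aRG, with -0.27 over all starts. The downward split depends on the scaling. With offsets fitted by loess to abundance, 11 member starts rose and 13 fell in N against aRG, and the medians were -0.12 for members and 0.21 for all starts. In bIP against aRG 2 rose and 12 fell under loess, with medians of -0.28 and 0.02. The distance between the member median and that of all starts kept its sign in every setting tried, from -0.37 to -0.15 (without N library 2) in N against aRG and from -0.30 to -0.10 in bIP against aRG. In N against bIP 3 member starts rose and 7 fell (6.98% and 16.3%), close to the 8.07% and 14.8% of all starts. Under loess 14 member starts rose and 4 fell. The medians were -0.04 for members and 0.00 for all starts, and 0.19 and 0.17 under loess. Their distance did not keep its sign there and ran from -0.10 to 0.03. Counts of all starts under loess are not given here, only their medians. With each library left out in turn, 20 of the 25 called starts kept the call in N against aRG, 8 of 25 in bIP against aRG and 4 of 10 in N against bIP. The bIP against aRG count of 25 was 14 without bIP library 1, 12 without aRG library 1 and 14 without aRG library 2, and the N against bIP count of 10 was 6 without N library 2.

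**Figure D1:**
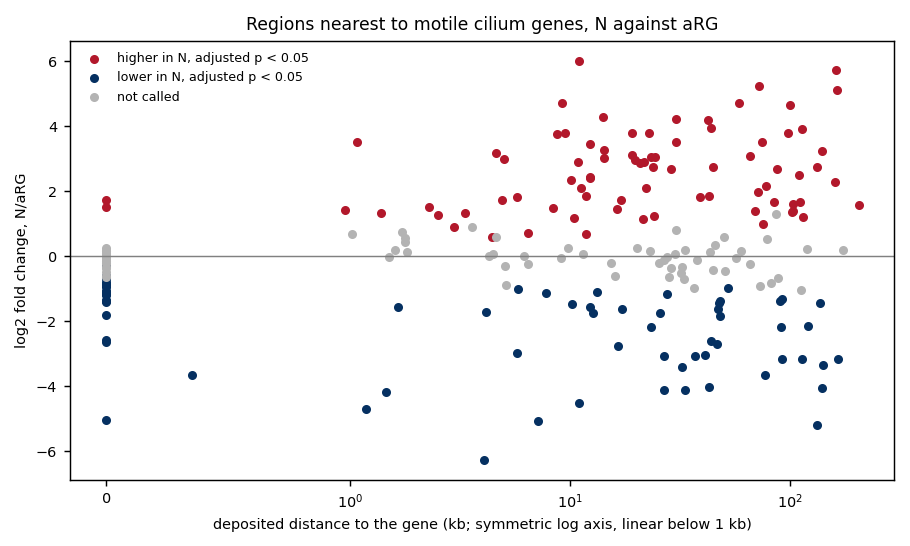
Log2 fold change of N over aRG (vertical axis) against the deposited distance to the named gene in kb (horizontal axis, symmetric log, linear below 1 kb) for the 217 member regions tested; colour marks the call at an adjusted p under 0.05. Start regions at 0 lie mostly below the line, with 23 fallen and 2 risen, and both directions occur below and beyond 50 kb.

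**Figure D2:**
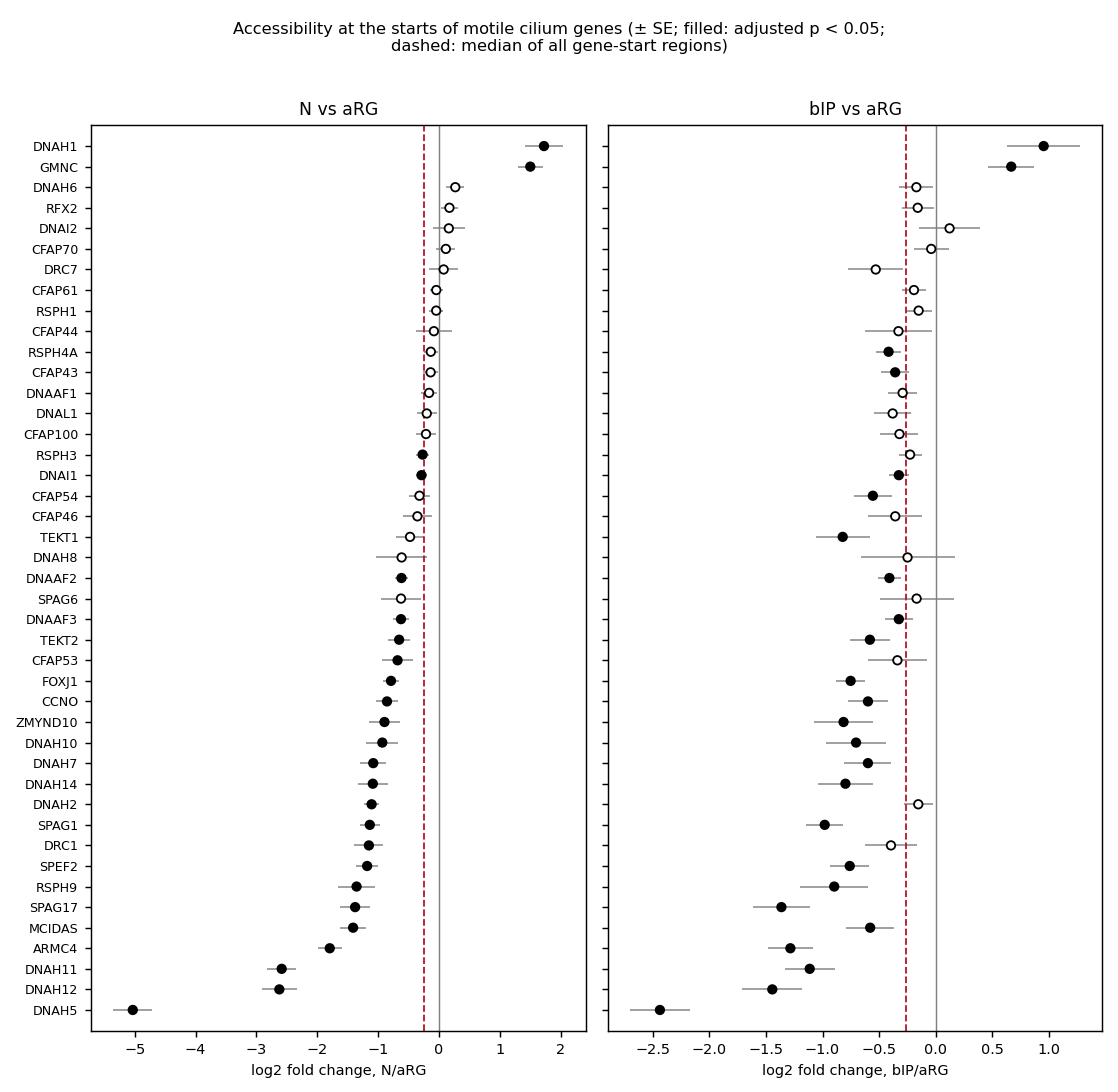
Log2 fold change with its standard error at the 43 tested start regions, N over aRG (left) and bIP over aRG (right), under TMM scaling; filled points passed an adjusted p of 0.05 and the dashed line is the median of all gene starts. DNAH5 was lowest in both comparisons, and DNAH1 and GMNC were the risen starts.

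A group of 12 starts fell in N against aRG under both scalings: those of ARMC4, DNAH2, DNAH5, DNAH11, DNAH12, DNAH14, DRC1, MCIDAS, RSPH9, SPAG1, SPAG17 and SPEF2. Under loess 11 others, FOXJ1, CCNO, DNAI1 and DNAAF2 among them, were no longer called. The starts of DNAH1 and GMNC rose under both. Under loess only, 9 more starts rose: those of CFAP43, CFAP61, CFAP70, DNAAF1, DNAH6, DRC7, RFX2, RSPH1 and RSPH4A. That of DNAH8 fell under loess only. The start of DNAAF2, which helps to assemble dynein arms in the cytoplasm, had the highest mean of all member regions, 52.9 CPM, with 44.4 and 39.8 CPM in N, 48.5 and 48.7 in bIP, 59.4 and 53.4 in bRG, and 68.6 and 60.5 in aRG. Per kilobase of region, the mean over the 8 libraries ran from 0.150 CPM at the start of DNAH9 to 29.8 CPM at the start of DNAAF3, another assembly factor.

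Of the 6 regulators, the sums of 1 rose and of 4 fell in N against aRG, where 32.8% of all gene sums rose and 28% fell. Among these calls only that of MCIDAS held with each library left out in turn. The CCNO call was lost without N library 2 or aRG library 1, and the RFX2 call without N library 1. With regions within 1 kb only, the RFX2 sum rose instead (log2 fold change 0.39, edgeR adjusted p = 0.0227). In bIP against aRG 0 rose and 2 fell, where 22% of all rose and 18.7% fell. The groups by role are small, and their counts describe these genes only. At FOXJ1, the forkhead factor of the ciliary programme, the start region (chr17:69252403-69253836) held 17.0 and 17.2 CPM in N, 16.7 and 18.3 in bIP, 25.9 and 27.8 in bRG, and 27.7 and 31.3 in aRG. Both N and both bIP libraries lay below all 4 radial glia libraries. It fell in bIP against aRG (log2 fold change -0.75, SE 0.13, edgeR adjusted p = 5.68e-04), also under loess. In N against aRG it fell under TMM (log2 fold change -0.79, SE 0.13, edgeR adjusted p = 1.55e-04) and was not called under loess (log2 fold change -0.25, edgeR adjusted p = 0.102). Other regions of FOXJ1 were higher in N or in bIP. The one 12394 bp away (chr17:69265140-69266435) held 8.24 and 9.95 CPM in N, 1.63 and 1.53 in bIP, 0.998 and 0.984 in bRG, and 0.742 and 0.922 in aRG, so that N stood above the rest (log2 fold change 3.44, SE 0.31, edgeR adjusted p = 1.46e-06). The one 30150 bp away held 2.32 and 1.10 CPM in N, 8.30 and 8.96 in bIP, 1.23 and 1.56 in bRG, and 2.07 and 1.21 in aRG, and there bIP stood apart from the other 6 libraries (bIP against aRG, log2 fold change 2.39, SE 0.38, edgeR adjusted p = 3.13e-04). Summed over its 5 regions FOXJ1 was level, with 33.8 and 33.2 CPM in N, 33.2 and 33.5 in bIP, 29.8 and 32.8 in bRG, and 30.9 and 33.4 in aRG, and no comparison of the sum was called. With regions within 1 kb only, the FOXJ1 sum had a log2 fold change of -0.56 in N against aRG.

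GMNC, the geminin-like protein at the top of the multiciliated programme, was the only regulator whose start rose in N against aRG under TMM. Its start region (chr3:188935573-188936606) held 18.3 and 19.0 CPM in N, 11.2 and 9.69 in bIP, 6.13 and 6.11 in bRG, and 6.13 and 7.04 in aRG, with N above bIP and bIP above both radial glia. It rose in N against aRG (log2 fold change 1.5, SE 0.21, edgeR adjusted p = 3.36e-05). It also rose in bIP against aRG (log2 fold change 0.67, SE 0.21, edgeR adjusted p = 0.0177) and in N against bIP (log2 fold change 0.84, SE 0.20, edgeR adjusted p = 0.00456). The bIP against aRG call was lost without bIP library 1 or aRG library 1, and the N against bIP call without bIP library 2. A region 10952 bp away (chr3:188924157-188924845) had the largest rise in N against aRG among the tested member regions, with 11.2 and 18.2 CPM in N, 1.20 and 1.30 in bIP, 0.470 and 0.509 in bRG, and 0.156 and 0.293 in aRG (log2 fold change 6.01, SE 0.43, edgeR adjusted p = 2.94e-07). It had a peak in the N list only. The region 142488 bp away showed the reverse order, with 1.58 and 1.65 CPM in N, 3.04 and 3.68 in bIP, 15.9 and 12.9 in bRG, and 18.7 and 14.1 in aRG (log2 fold change -3.34, SE 0.27, edgeR adjusted p = 6.85e-07). The sum over the 11 regions of GMNC rose in N against aRG by less than its start (log2 fold change 0.34, SE 0.098, edgeR adjusted p = 0.015). That call was lost without N library 2 or without either aRG library.

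MCIDAS (multicilin) and CCNO (cyclin O) act after GMNC and lie side by side on chromosome 5. The MCIDAS start (chr5:44814713-44816425) held 7.31 and 5.25 CPM in N, 10.9 and 11.5 in bIP, 13.9 and 11.8 in bRG, and 18.0 and 15.5 in aRG, which put both N libraries lowest. It fell in N against aRG (log2 fold change -1.41, SE 0.22, edgeR adjusted p = 8.41e-05). It also fell in bIP against aRG (log2 fold change -0.58, SE 0.21, edgeR adjusted p = 0.0389) and in N against bIP (log2 fold change -0.83, SE 0.22, edgeR adjusted p = 0.00722). Under loess neither of these was called (log2 fold change -0.37, edgeR adjusted p = 0.133 in bIP against aRG, and log2 fold change -0.47, edgeR adjusted p = 0.0583 in N against bIP). The bIP against aRG call was also lost with DESeq2 and without any single bIP, bRG or aRG library, and the N against bIP call without N library 2. Its other region, 5801 bp away, also fell in N against aRG (log2 fold change -1.0). The N libraries were the lowest at both regions. CCNO, with 1 region, held 13.9 and 11.7 CPM in N, 16 and 14.6 in bIP, 18.8 and 19.3 in bRG, and 26.9 and 19.5 in aRG and fell in N against aRG under TMM (log2 fold change -0.85, SE 0.18, edgeR adjusted p = 9.29e-04), with no call under loess (log2 fold change -0.29, edgeR adjusted p = 0.127).

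RFX2 and RFX3 encode winged-helix factors that bind the X-box of ciliary genes, also in cells with primary cilia. The RFX2 start (chr19:6038829-6040029) was open in all libraries, with 35.3 and 43.4 CPM in N, 27.2 and 35.3 in bIP, 32.8 and 36.4 in bRG, and 33.5 and 36.4 in aRG, and its differences among N, bIP and aRG were not called under TMM. Under loess it rose in N against aRG (log2 fold change 0.66, edgeR adjusted p = 5.24e-04) and in N against bIP (log2 fold change 0.49, edgeR adjusted p = 0.00777). The other region of RFX2, 10975 bp away (chr19:6050198-6051205), held 1.24 and 1.10 CPM in N, 9.35 and 11.1 in bIP, 29.4 and 24.8 in bRG, and 28.2 and 25.4 in aRG. N was lowest there, bIP in between, and no library of one overlapped another or the radial glia (log2 fold change -4.51, SE 0.21, edgeR adjusted p = 4.08e-08). RFX3 had 13 regions, none at its start, and they moved both ways. The region 66187 bp away held 15.7 and 16.3 CPM in N, 5.80 and 3.68 in bIP, 1.88 and 2.14 in bRG, and 1.91 and 1.84 in aRG and rose in N against aRG (log2 fold change 3.09, SE 0.30, edgeR adjusted p = 2.37e-06). The region 26738 bp away (chr9:3442644-3443311) held 0.867 and 1.18 CPM in N, 1.52 and 3.94 in bIP, 12.9 and 17.0 in bRG, and 15.7 and 19.2 in aRG and fell (log2 fold change -4.10, SE 0.41, edgeR adjusted p = 2.63e-06). Summed, RFX3 was lowest in bIP, with 42.4 and 42.2 CPM in N, 24.6 and 26.0 in bIP, 47.0 and 49.4 in bRG, and 51.7 and 48.1 in aRG. All 4 radial glia libraries lay above both N libraries, and these above both bIP libraries. The sum fell in bIP against aRG (log2 fold change -0.98, SE 0.092, edgeR adjusted p = 1.35e-04) and rose in N against bIP (log2 fold change 0.74, SE 0.092, edgeR adjusted p = 5.88e-04). Its small N against aRG difference (log2 fold change -0.24, edgeR adjusted p = 0.0458) was lost under loess and without any single N, bRG or aRG library.

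Of the 5 outer dynein arm heavy chains, the motors that set beat frequency, the sums of 3 rose and of 0 fell in N against aRG, where 32.8% of all gene sums rose and 28% fell. At DNAH5, DNAH11 and DNAH17 the region at or nearest to the start fell while others rose. The start of DNAH5 (chr5:13859899-13860913), whose loss is a common cause of primary ciliary dyskinesia in humans, held 0.526 and 0.509 CPM in N, 2.39 and 3.94 in bIP, 15.8 and 15.5 in bRG, and 17.0 and 17.3 in aRG. It was nearly closed in N, intermediate in bIP and open in both radial glia. It fell in N against aRG (log2 fold change -5.03, SE 0.32, edgeR adjusted p = 1.33e-07), under loess too. It also fell in bIP against aRG (log2 fold change -2.44, SE 0.26, edgeR adjusted p = 2.56e-05) and in N against bIP (log2 fold change -2.60, SE 0.32, edgeR adjusted p = 8.20e-05). Of the 19 DNAH5 regions tested, 9 rose in N against aRG and 6 fell, where 37.2% of all regions rose and 31.7% fell. The one 14165 bp away (chr5:13874254-13874891) held 3.10 and 4.19 CPM in N, 1.12 and 0.957 in bIP, 0.352 and 0.339 in bRG, and 0.234 and 0.126 in aRG (log2 fold change 4.29, SE 0.43, edgeR adjusted p = 2.99e-06). The one 30381 bp away (chr5:13889551-13890615) held 9.38 and 5.68 CPM in N, 5.58 and 3.37 in bIP, 0.411 and 0.645 in bRG, and 0.430 and 0.377 in aRG (log2 fold change 4.21, SE 0.44, edgeR adjusted p = 3.75e-06). In both the N and bIP libraries lay above every radial glia library. At 72035 bp bIP was the highest, with 5.54 and 4.04 CPM in N, 12.3 and 11.7 in bIP, 1.09 and 1.46 in bRG, and 1.25 and 1.17 in aRG (bIP against aRG, log2 fold change 3.30, SE 0.31, edgeR adjusted p = 1.25e-05). Over all 20 regions the DNAH5 sum was not called in N against aRG (log2 fold change -0.16, SE 0.089, edgeR adjusted p = 0.163).

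DNAH11, the heavy chain of the proximal outer arm, also had a fallen start and risen regions far from it. Its start (chr7:21656998-21659460) held 4.09 and 2.98 CPM in N, 8.88 and 10.8 in bIP, 20.4 and 16.4 in bRG, and 23.9 and 18.7 in aRG and fell in N against aRG (log2 fold change -2.59, SE 0.23, edgeR adjusted p = 1.42e-06). The region 72768 bp away (chr7:21729558-21730590) held 26.8 and 23.8 CPM in N, 6.13 and 2.14 in bIP, 0.851 and 0.814 in bRG, and 0.508 and 0.838 in aRG (log2 fold change 5.23, SE 0.47, edgeR adjusted p = 1.39e-06). At 163074 bp (chr7:21820027-21820458) the values were 7.62 and 12 CPM in N, 1.12 and 1.15 in bIP, 0.440 and 0.543 in bRG, and 0.0781 and 0.293 in aRG (log2 fold change 5.71, SE 0.48, edgeR adjusted p = 8.81e-07). At 164243 bp they were 21.8 and 27.0 CPM in N, 2.72 and 1.95 in bIP, 1.12 and 0.950 in bRG, and 0.625 and 0.796 in aRG. The far regions carried the gene sum, which rose in N against aRG (log2 fold change 1.63, SE 0.11, edgeR adjusted p = 8.26e-06). With regions within 50 kb only, the log2 fold change of the sum was -1.02, and within 1 kb it was -2.36. In the RefSeq annotation CDCA7L overlaps the DNAH11 gene or lies within 1 kb of one of its ends. No value here ties the far regions to either gene.

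DNAH17, a heavy chain known from sperm, had no start region, and its nearest region, 1450 bp away (chr17:71698717-71699778), held 0.279 and 0.118 CPM in N, 0.689 and 1.30 in bIP, 3.76 and 6.01 in bRG, and 3.32 and 4.31 in aRG (log2 fold change -4.19, SE 0.50, edgeR adjusted p = 1.04e-05). All its 4 other tested regions rose in N against aRG, where 37.2% of all regions rose. Among them, the one 22821 bp away held 14.3 and 16.2 CPM in N, 9.97 and 5.78 in bIP, 1.91 and 1.15 in bRG, and 1.02 and 1.17 in aRG. The DNAH17 sum held 34.7 and 40.9 CPM in N, 28.5 and 19.0 in bIP, 8.90 and 11.4 in bRG, and 6.58 and 8.23 in aRG and rose in N against aRG (log2 fold change 2.35, SE 0.24, edgeR adjusted p = 5.12e-05). It also rose in bIP against aRG (log2 fold change 1.68, SE 0.23, edgeR adjusted p = 7.29e-04). DNAH9, the distal outer arm partner of DNAH5, held 61.3 and 35.7 CPM in N, 56.6 and 37.7 in bIP, 32.2 and 34.4 in bRG, and 26.9 and 31.3 in aRG in sum and rose in N against aRG (log2 fold change 0.74, SE 0.26, edgeR adjusted p = 0.0349). The libraries numbered 1 were the higher ones in both N and bIP at DNAH9, and N library 2 lay close to the radial glia. The call was lost without N library 1 and without either aRG library. DNAH8, a heavy chain of sperm, held 0.596 to 1.94 CPM in its only region. Under TMM it was not called in any of the 3 comparisons with N or bIP against aRG or each other. Under loess the region fell in N against aRG.

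**Figure D3:**
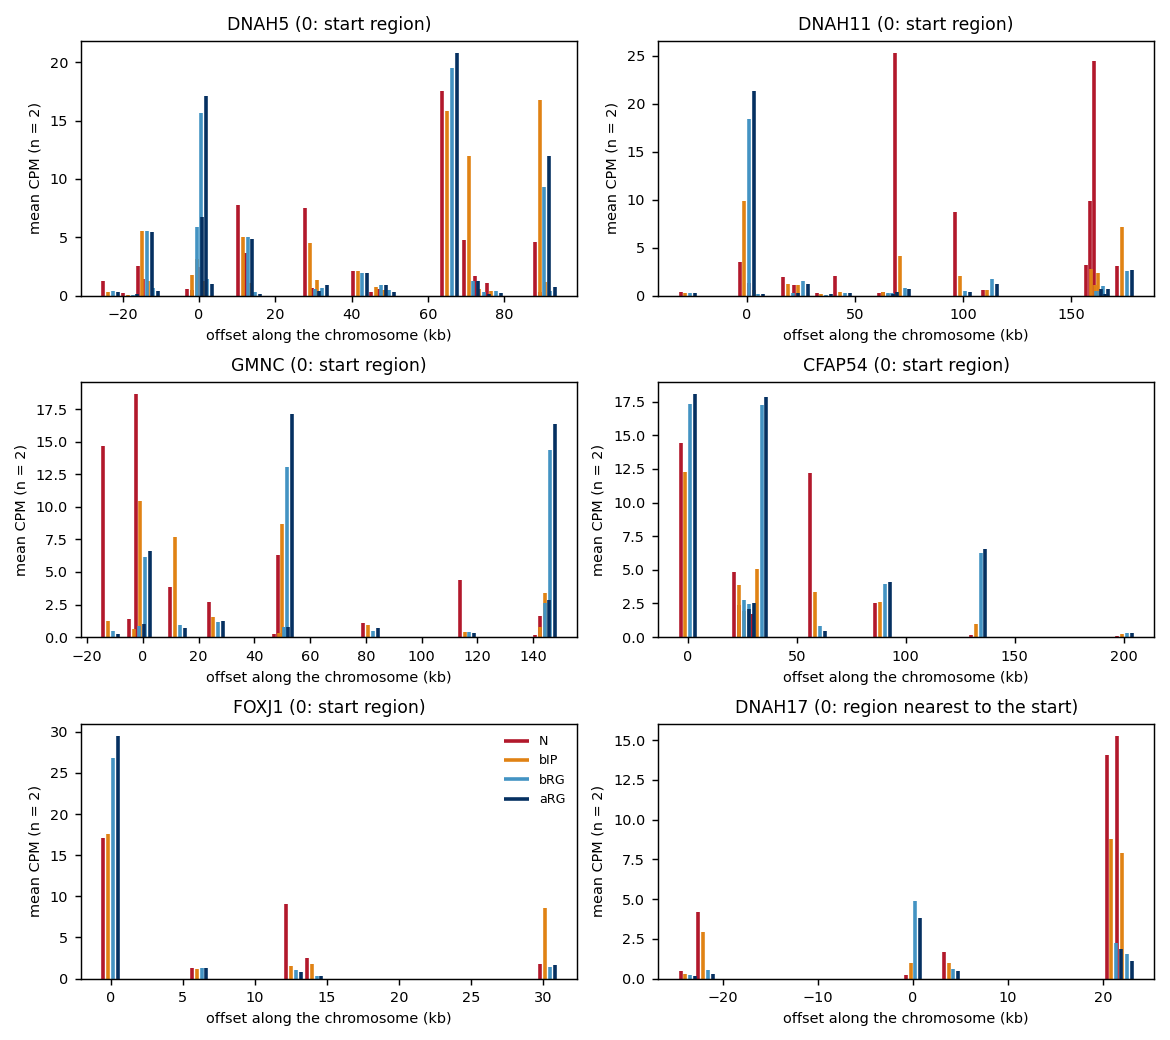
Mean CPM of the 2 libraries for each region of 6 loci against its offset in kb from the start region (for DNAH17, from the region nearest to the start); the 4 bars of a region are drawn side by side in the order N, bIP, bRG, aRG, so their horizontal shift carries no position. At DNAH5, DNAH11 and FOXJ1 the radial glia were highest at offset 0, and N was highest at several regions away from it.

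Of the 8 inner dynein arm heavy chains, which shape the bend, the sums of 3 rose and of 4 fell in N against aRG, against the same 32.8% and 28% of all gene sums. DNAH12 fell the most. Its start (chr3:57799103-57800280) held 1.98 and 1.37 CPM in N, 3.99 and 3.68 in bIP, 8.57 and 9.06 in bRG, and 9.89 and 11.0 in aRG. The region 1183 bp away (chr3:57800709-57801481) held 0.217 and 0.353 CPM in N, 0.942 and 1.49 in bIP, 6.81 and 5.53 in bRG, and 7.85 and 6.74 in aRG (log2 fold change -4.69, SE 0.40, edgeR adjusted p = 8.91e-07). The DNAH12 sum fell in N against aRG (log2 fold change -3.02, SE 0.20, edgeR adjusted p = 8.41e-06). It also fell in bIP against aRG (log2 fold change -1.63, SE 0.18, edgeR adjusted p = 2.72e-04). N lay below bIP, and bIP below both radial glia. At DNAH1 the start (chr3:52589461-52590385) rose, with 5.98 and 5.45 CPM in N, 3.88 and 2.80 in bIP, 1.82 and 2.48 in bRG, and 1.48 and 1.97 in aRG (log2 fold change 1.73, SE 0.32, edgeR adjusted p = 3.39e-04), while the sum fell (log2 fold change -0.48, SE 0.12, edgeR adjusted p = 0.00759). In the RefSeq annotation BAP1 overlaps the DNAH1 gene or lies within 1 kb of one of its ends. Its distance to the DNAH1 start was not measured. DNAH2 was highest in bIP. Its sum held 66.1 and 53.7 CPM in N, 88.1 and 78.7 in bIP, 60.4 and 57.5 in bRG, and 60.7 and 60.9 in aRG (bIP against aRG, log2 fold change 0.46, SE 0.12, edgeR adjusted p = 0.0135), while its start fell in N against aRG (log2 fold change -1.11). The bIP against aRG rise of the DNAH2 sum was lost without bIP library 1, without either aRG library and within 1 kb.

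DNAH10, DNAH6 and DNAH3 were the inner arm genes whose sums rose in N against aRG. DNAH10 held 20.6 and 15.4 CPM in N, 11.5 and 10.2 in bIP, 9.90 and 10.9 in bRG, and 8.48 and 10.2 in aRG (log2 fold change 0.95, SE 0.20, edgeR adjusted p = 0.0032), carried by a region 42487 bp away (chr12:121473344-121474273) with 13.1 and 9.29 CPM in N, 5.04 and 3.10 in bIP, 0.734 and 1.02 in bRG, and 0.547 and 0.670 in aRG. Within 1 kb the DNAH10 sum had a log2 fold change of -0.71. DNAH6 held 30.2 and 33.2 CPM in N, 22.3 and 20.2 in bIP, 21.0 and 20.4 in bRG, and 21.2 and 21.7 in aRG (log2 fold change 0.57, SE 0.12, edgeR adjusted p = 0.00275), with both N libraries above the other 6. The sums of DNAH7 and DNAH14 fell in N against aRG (log2 fold changes -0.64 and -0.43). DNAH3 held 5.23 and 7.31 CPM in N, 2.35 and 2.01 in bIP, 3.59 and 2.88 in bRG, and 4.07 and 2.85 in aRG and was lowest in bIP, with a rise in N against bIP (log2 fold change 1.52, SE 0.28, edgeR adjusted p = 0.00353).

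Among the intermediate and light chains and the docking proteins of the arms, ARMC4, which anchors the outer arm, fell throughout its locus. Its start (chr10:28129182-28130661) held 7.37 and 5.45 CPM in N, 9.86 and 8.46 in bIP, 21.9 and 18.7 in bRG, and 23.7 and 20.9 in aRG. All 3 tested regions fell in both N and bIP against aRG, where 31.7% and 22.6% of all regions fell. The ARMC4 sum fell in N against aRG (log2 fold change -1.90, SE 0.18, edgeR adjusted p = 3.87e-05). It also fell in bIP against aRG (log2 fold change -1.31, SE 0.18, edgeR adjusted p = 6.37e-04). DNAI1, an intermediate chain, had 47.1 and 48.1 CPM in N, 44.0 and 48.7 in bIP, 51.9 and 51.2 in bRG, and 57.6 and 58.7 in aRG at its start. The start fell under TMM in N against aRG (log2 fold change -0.29, SE 0.088, edgeR adjusted p = 0.0109) and in bIP against aRG (log2 fold change -0.33, SE 0.088, edgeR adjusted p = 0.00875). Neither call held under loess, with DESeq2 or without aRG library 2. The region 7143 bp away (chr9:34402073-34403702) held 0.619 and 0.862 CPM in N, 4.57 and 8.73 in bIP, 24.8 and 23.7 in bRG, and 24.5 and 24.8 in aRG (log2 fold change -5.07, SE 0.32, edgeR adjusted p = 1.31e-07). The DNAI1 sum fell in N against aRG (log2 fold change -0.58, SE 0.094, edgeR adjusted p = 7.40e-04). DNAI2, its partner, held 39.3 and 26.9 CPM in N, 41.0 and 35.6 in bIP, 24.7 and 20.1 in bRG, and 22.7 and 21.3 in aRG in sum and rose in N against aRG (log2 fold change 0.59, SE 0.19, edgeR adjusted p = 0.0228). It also rose in bIP against aRG (log2 fold change 0.80, SE 0.19, edgeR adjusted p = 0.00918). The N against aRG call was lost without N library 1 or either aRG library, the bIP against aRG call without bIP library 1 or aRG library 2, and both within 1 kb. DNAL1, a light chain, and CFAP53, a docking protein, were not called in these comparisons of sums.

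Of 5 dynein assembly factors, the sums of 0 rose and of 3 fell in N against aRG, where 28% of all gene sums fell. SPAG1 held 9.32 and 11.0 CPM in N, 10.6 and 12.1 in bIP, 18.7 and 19.1 in bRG, and 22.9 and 21.9 in aRG at its start (chr8:98086451-98087782). N and bIP lay below all radial glia libraries there. It fell in N against aRG (log2 fold change -1.14, SE 0.17, edgeR adjusted p = 5.56e-05). It also fell in bIP against aRG (log2 fold change -0.98, SE 0.17, edgeR adjusted p = 4.61e-04). The sums of DNAAF2 and DNAAF3 also fell in N against aRG (log2 fold changes -0.42 and -0.49), and those of DNAAF1 and ZMYND10 were not called.

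CCDC40, which with CCDC39 forms the ruler that sets the repeat of the axoneme, had the largest fall in N against aRG among the tested member regions. The region 4046 bp away (chr17:73171557-73172086) held 0.124 and 0.0784 CPM in N, 0.906 and 1.68 in bIP, 9.92 and 7.13 in bRG, and 10.0 and 6.37 in aRG, which in N were 4 and 2 reads. Both N libraries and both bIP libraries lay below every radial glia library, and N below bIP. It fell in N against aRG (log2 fold change -6.25, SE 0.52, edgeR adjusted p = 7.80e-07). It also fell in bIP against aRG (log2 fold change -2.66, SE 0.37, edgeR adjusted p = 1.35e-04). It had a peak in bRG and aRG only. The other CCDC40 region, 28153 bp away, held at most 0.407 CPM in any library. The CCDC40 sum fell in N against aRG, in bIP against aRG and in N against bIP (log2 fold changes -4.87, -2.21 and -2.66). CFAP44, part of the tether of an inner arm, rose instead. Its start was level, with 3.41 and 2.51 CPM in N, 2.28 and 2.72 in bIP, 3.11 and 3.43 in bRG, and 2.81 and 3.48 in aRG. The region 9201 bp away (chr3:111660616-111661845) held 13.2 and 16.7 CPM in N, 2.14 and 1.72 in bIP, 0.587 and 0.950 in bRG, and 0.508 and 0.628 in aRG (log2 fold change 4.71, SE 0.36, edgeR adjusted p = 4.75e-07). The CFAP44 sum rose in N against aRG (log2 fold change 2.70, SE 0.21, edgeR adjusted p = 1.56e-05), but within 1 kb its log2 fold change was 0.14 and not called. CFAP43, the partner of CFAP44, CFAP70 and CFAP100 had N against aRG log2 fold changes of 0.0023, 0.31 and -0.070 in sum. Of the nexin-dynein genes, DRC7 rose in sum in N against aRG (log2 fold change 0.52, SE 0.20, edgeR adjusted p = 0.0474), a call lost under RLE and loess scaling, with DESeq2 and without 7 of the 8 libraries in turn. DRC1 was not called, though its start fell (log2 fold change -1.15).

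Of 5 radial spoke genes, 1 was called in N against aRG as a sum, where 60.8% of all gene sums were called. RSPH9, of the spoke head, fell (log2 fold change -1.21, SE 0.29, edgeR adjusted p = 0.00662), with 4.83 and 3.19 CPM in N, 6.94 and 4.44 in bIP, 10.8 and 8.68 in bRG, and 10.2 and 8.39 in aRG. RSPH1, RSPH3, RSPH4A and CFAP61 had sums between 27.5 and 58.2 CPM in the 8 libraries and were not called in N against aRG, in bIP against aRG or in N against bIP. Among the central pair genes, CFAP54 carried regions of opposite course. The one 58991 bp away (chr12:94223857-94225210) held 11.1 and 13.3 CPM in N, 4.2 and 2.45 in bIP, 0.939 and 0.747 in bRG, and 0.469 and 0.461 in aRG (log2 fold change 4.70, SE 0.38, edgeR adjusted p = 7.00e-07). The one 133347 bp away (chr12:94297904-94298607) held 0.155 and 0.196 CPM in N, 0.942 and 0.995 in bIP, 7.95 and 4.62 in bRG, and 8.21 and 4.86 in aRG (log2 fold change -5.20, SE 0.48, edgeR adjusted p = 1.57e-06). Its sum was lowest in bIP and fell there against aRG (log2 fold change -0.59, SE 0.089, edgeR adjusted p = 0.00104). SPAG17 and SPEF2 fell at their starts in N against aRG (log2 fold changes -1.38 and -1.18), and SPAG6 was not called. SPAG16 in sum was lowest in bIP, with 6.99 and 6.66 CPM in N, 3.87 and 4.48 in bIP, 9.84 and 8.47 in bRG, and 9.42 and 6.91 in aRG (bIP against aRG, log2 fold change -0.97, SE 0.22, edgeR adjusted p = 0.00829). CFAP46 was not called in these sums. TEKT1 and TEKT2 encode tektins, which line the doublets. TEKT1 fell in sum in bIP against aRG (log2 fold change -0.59) and TEKT2 in N against aRG (log2 fold change -0.51). The start of TEKT2, its only region, fell in N against aRG and in bIP against aRG under TMM (log2 fold changes -0.65 and -0.58), in neither under loess. STOML3, a stomatin-like membrane protein, fell in N against aRG, with 0.364 and 0.694 CPM in N, 1.20 and 0.822 in bIP, 1.21 and 1.42 in bRG, and 0.972 and 1.65 in aRG.

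Summed per gene, 29 of 50 members were called in N against aRG (10 rose, 19 fell), against 60.8% of all 40618 gene sums tested, 32.8% up and 28% down. The median log2 fold change was -0.21 for members and 0.05 for all gene sums. In bIP against aRG 15 were called (4 rose, 11 fell), against 40.7% of all, 22% up and 18.7% down, with medians of -0.15 and 0.00. In N against bIP 17 were called (10 rose, 7 fell), against 40.1% of all, 20.9% up and 19.2% down, with medians of -0.09 and 0.01. The N against aRG count was 17 without aRG library 1 and 17 without aRG library 2, and the N against bIP count was 11 without N library 2. Of the 29 sums called in N against aRG, 13 kept the call with each library left out in turn: ARMC4, CCDC40, CFAP44, DNAH1, DNAH6, DNAH10, DNAH11, DNAH12, DNAH17, DNAI1, MCIDAS, RSPH9 and SPAG1. The other 16 lost it without at least 1 library, among them DNAH3, DNAH7, DNAH14, DNAAF2, DNAAF3, STOML3 and TEKT2. Of the 15 in bIP against aRG 8 kept the call in this way, which DNAH2, SPAG16 and TEKT1 did not, and of the 17 in N against bIP 9 did. In N against bRG 26 were called (9 rose, 17 fell), against 59.2% of all, 31.9% up and 27.3% down. In bIP against bRG 16 were called (5 rose, 11 fell), against 37.9% of all, 19.8% up and 18.1% down. Leaving out bRG library 1 or bRG library 2 gave 16 in N against bRG, and bIP against bRG had 10 without bIP library 1 and 8 without bRG library 2. The joint test called 27, and 63.8% of all. These comparisons share libraries and are not independent of each other.

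**Figure D4:**
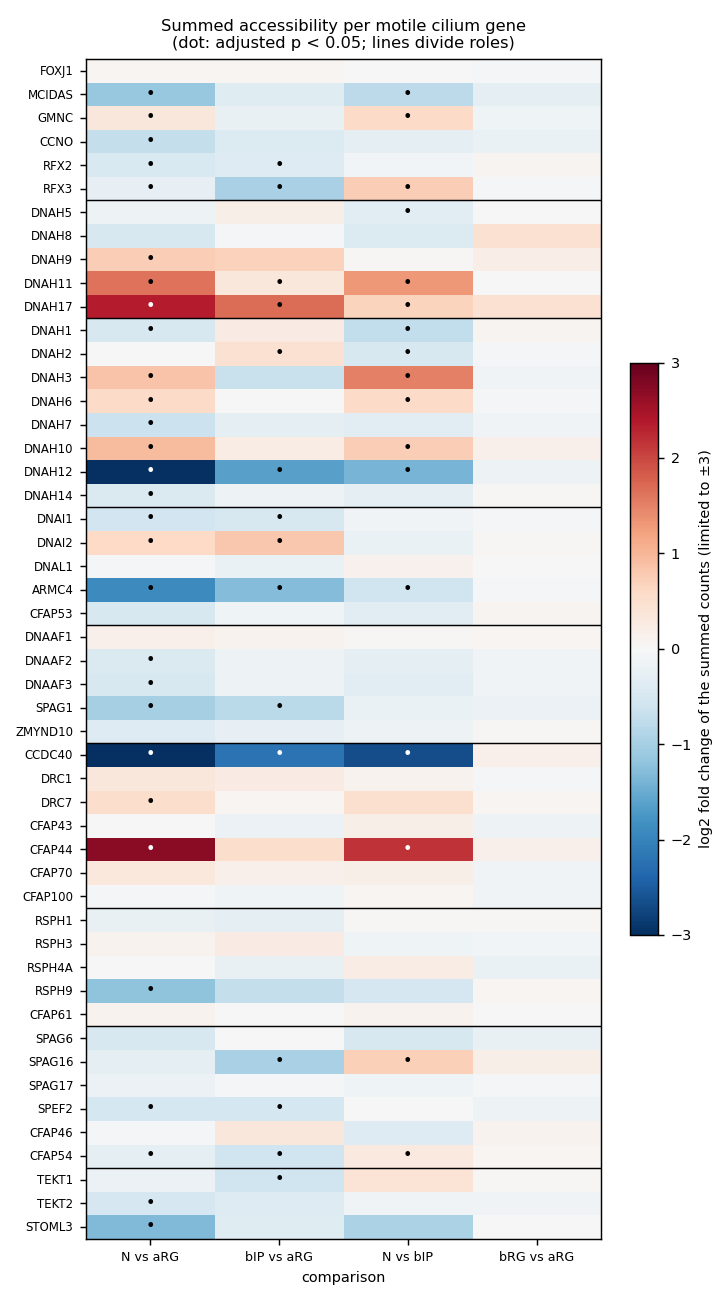
Log2 fold change of the summed counts for the 50 members with regions, in 4 comparisons; rows follow the members' roles, dots mark an adjusted p under 0.05, and colours are limited at 3 either way. In N over aRG 10 sums rose and 19 fell, and the bRG over aRG column is pale and without dots.

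In bRG against aRG 0 of 50 member sums were called by edgeR, as were 0% of all gene sums, DESeq2 also called 0, and 0 members but 541 of all genes had an unadjusted p under 0.05. The members with the smallest p were DNAH17 (log2 fold change 0.45, SE 0.23, edgeR adjusted p = 1.00), RSPH4A (log2 fold change -0.19, SE 0.10, edgeR adjusted p = 1.00) and MCIDAS (log2 fold change -0.29, SE 0.19, edgeR adjusted p = 1.00). A p above the threshold with 2 libraries each does not show that bRG and aRG were alike.

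Of 49 further motile cilium genes tested (62 listed), 16 rose and 10 fell in N against aRG, with a median log2 fold change of 0.16, where 32.8% of all gene sums rose and 28% fell. In bIP against aRG 5 rose and 5 fell, where 22% of all rose and 18.7% fell. The steepest riser was NME8, an outer arm subunit, with 22.7 and 12 CPM in N, 3.59 and 1.69 in bIP, and 0.561 and 0.843 in aRG. HYDIN, of the central pair, held 92.5 and 87.5 CPM in N, 81.7 and 49.1 in bIP, and 21.1 and 19.4 in aRG. DEUP1, which builds the deuterosomes that make centrioles in multiciliated cells, fell, with 6.82 and 5.47 CPM in N, 8.94 and 9.05 in bIP, and 14.4 and 11.0 in aRG (log2 fold change -1.05, SE 0.21, edgeR adjusted p = 0.00252). Of 32 genes of intraflagellar transport and the BBSome tested (37 listed), which primary cilia need too, 6 rose and 4 fell in N against aRG, beside the same 32.8% and 28% of all, with a median of 0.13.

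Of 7 markers of choroid plexus and ependyma, 0 rose and 4 fell in N against aRG, where 28% of all gene sums fell, and 1 rose and 3 fell in bIP against aRG, where 18.7% of all fell. Of 6 markers of inhibitory neurons, 0 rose and 3 fell in N against aRG, beside the same 28%. For choroid plexus and ependyma the summed accessibility was 97.8 to 104 CPM in N, 131 to 149.6 CPM in bIP, 139.6 to 153 CPM in bRG and 149 to 158 CPM in aRG, and none was at 0 in any library. The sum was lowest in N, where most member starts were also lower under TMM, and its part in the member results was not tested. The 5 genes whose sums followed FOXJ1 most closely over the 4 populations, by Euclidean distance of centred mean log2 CPM, were ZNF569, AP003783.1, MKKS, AC034102.3 and ZMPSTE24. FOXJ1 itself was flat, and 4446 of 24217 genes lay within 0.2 of it, so a small distance was common.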

How the data were processed

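Bulk ATAC-seq was measured in 8 libraries of 4 sorted populations. The deposited count table holds whole-number read counts for each region, not normalized by the authors, with the closest gene and a distance in bp without sign, per the file headers. The deposited peak lists, 1 a population, carry a −log10 q-value, and only their intervals were used. The submitters' processing notes name bcl2fastq 2.20.0, MACS2 and the builds panTro6 and hg38. Not given in the sources used here: the aligner, the counter, the gene annotation, and how libraries were combined into peak lists. Of the member regions, 92.3% carry identifiers in all 3 species of the table.

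The 6725 rows without a panTro6 identifier, which hold 0 counts, and 7 repeated identifiers were removed. Starts in panTro6 were read from 0 (54881 equal a peak start so, 11 if read from 1) and are given 1-based. Counts were tested by region and as sums per closest gene, over all genes and with all 8 libraries in 1 fit, with edgeR 4.0.16 in R 4.3.3 (TMM scaling, filterByExpr, robust quasi-likelihood F-test). The Benjamini-Hochberg adjusted p threshold was 0.05, and the script was tested on simulated data. Alternatives were RLE and loess scaling, DESeq2 1.42.0 (limma 3.58.1 was loaded with edgeR), no filter, a replicate block, each library left out, and sums within 50 kb and 1 kb. A peak was shared at an overlap of 1 bp.

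Named genes were the regulators and CCDC40, on sums the 6 members with the smallest p in each direction of N against aRG, bIP against aRG and N against bIP, the 3 with the smallest p in bRG against aRG, and for N against aRG the 8 regions with the largest fold change in each direction with a mean of at least 1 CPM, at most 2 a gene. The member with most regions, the region with the highest mean and the 5 genes most like FOXJ1 among those of at least 10 CPM were added. Other members and regions were named after their values were seen. Members and lists were chosen with earlier results of these data known. Promoter sequences and motifs were not used here.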

Additional observations from a re-analysis of the deposited data

How the results depend on the processing

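All 16 regions with the largest fold changes between N and aRG kept their calls and directions in every alternative run at region level. They were chosen for these fold changes and every alternative used the same counts, so this outcome was nearly fixed by the choice. It does not speak for the other member regions. Of the counts and totals, 257 alternative values stayed within 1.5 times and 17 did not. The 257 include bRG against aRG counts that were 0 in the main fit and stayed 0, to which a range of 1.5 times does not apply. In bIP against aRG, 15 called gene sums became 24 with the replicate block, with MCIDAS and CCNO then also among the fallen regulators (edgeR adjusted p = 0.0385 and 0.0470), and 25 called starts became 14 with loess scaling. In N against bIP, 17 gene sums became 11 within 1 kb, and 10 starts became 18 with loess scaling and 17 with the replicate block. In bIP against bRG, 16 gene sums became 8 within 1 kb, where fewer regions enter. The causes of these shifts were not tested. Deviations of library 1 from its population mean, over all tested regions, correlated between populations at 0.12 to 0.31, positive for every pair of populations. With 2 libraries a population, the deviations of library 2 mirror these and add no further evidence. The labels tie the numbers to no shared culture.

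Leaving out 1 library at a time, where a lone library is assumed to vary like the others, gave 17 to 29 called gene sums in N against aRG, 10 to 16 in bIP against aRG, 11 to 19 in N against bIP, 16 to 28 in N against bRG, 8 to 17 in bIP against bRG and 21 to 29 jointly. Called starts ran from 20 to 31 in N against aRG, 12 to 25 in bIP against aRG and 6 to 12 in N against bIP.

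Directions of single gene sums turned in 27 values, most by limiting distance. Within 1 kb the log2 fold changes were -0.56 (N against aRG), -0.51 (bIP against aRG) and -0.050 (N against bIP) for FOXJ1, 0.39, 0.075 and 0.32 for RFX2, and -2.36, -0.88 and -1.48 for DNAH11 in the same order. They were 0.91 for GMNC in bIP against aRG, -0.71 for DNAH10 in N against aRG and 0.75 for DNAH1 in N against bIP. Within 50 kb they were -1.02, -0.63 and -0.39 for DNAH11, 0.33 for GMNC in bIP against aRG and 0.11 for DNAH5 in N against bIP. FOXJ1 in N against bIP was -0.039 with RLE scaling and -0.039 with DESeq2. With 1 library left out, FOXJ1 ran from -0.0085 to 0.12 in N against aRG, from -0.0035 to 0.11 in bIP against aRG and from -0.046 to 0.018 in N against bIP, and RFX2 ran from -0.23 to 0.040 in N against bIP.

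With 2 libraries a population, regions near 1 CPM rest on few reads, and their fold changes carry wider errors.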
